A study of Mus musculus with 12 samples.

Results

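Of the 24421 genes listed, 77 had a symbol for a mitochondrial ribosomal protein, an Mrpl or Mrps prefix followed by a number. Their RNA was measured in astrocyte-enriched cells of the mouse cerebellum at 4 postnatal ages (P1, P7, P14, P28), with 3 libraries per age and 12 in all. Every group had the genotype Aldh1l1-GFP, in which the Aldh1l1 promoter drives green fluorescent protein, and the labels give no further allele and no agent. The cells were sorted for that fluorescence from dissociated tissue, so any other cell in which the promoter is active, or that stays attached to a fluorescent one, can be present. Values are normalized counts, that is, read counts divided by a size factor of the library. All 12 column names carry P28, and the ages rest on the sample labels.

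Mitochondria have their own ribosome, which translates the few proteins encoded in mitochondrial DNA, all of them subunits of the oxidative phosphorylation (OXPHOS) complexes. Its proteins are encoded in the nucleus, made in the cytosol and imported. Some descend from the bacterial ribosome, and others exist only in mitochondria. In astrocytes, mitochondria reach into the fine processes that contact synapses and vessels.

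By the unified ribosomal nomenclature, 50 of the 77 members belong to the large subunit, which forms peptide bonds, and 26 to the small subunit, which reads the messenger RNA. Mrps18a and Mrps30 are counted with the large subunit despite their names. The remaining member, Mrps36, is an adaptor of the 2-oxoglutarate dehydrogenase complex and not a ribosomal subunit. Among the 76 ribosomal proteins, 46 have a bacterial homolog and 30 are specific to mitochondria. All 77 passed the filter on low values, 3 libraries with a normalized count of 10 or more. Reads of 10 or more were found in every library for 75 members, and none was without a read in any library. The fewest were the 5 reads of Mrpl46 in 1 library.

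Levels per kb of transcript differed 108-fold between members. Averaged over the 12 libraries, Mrpl52 had 2350 normalized counts per kb, Mrpl30 had 968, Mrps33 had 613, Mrps21 had 552 and Mrps36 had 516. The lowest were Mrps26 (27.8 per kb), Mrps35 (26.7), Mrpl57 (25.5), Mrpl15 (23.6) and Mrps25 (21.8). The median was 111 per kb for the large subunit and 107 for the small one, so the subunits were close in the middle of their ranges. This order rests on the length of the RefSeq-matched transcript. With all annotated exons as the length, an alternative chosen after seeing the data, Mrpl52 remained highest at 886 per kb and Mrpl30 fell to rank 5. The lowest was then Mrpl33 at 11.3 per kb, a range of 78.6-fold, and Mrps26, Mrpl57 and Mrps25 left the lowest 5.

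A promoter sequence was found for 68 members (74 promoters, RefSeq on GRCm38.p6, from 250 bases before to 50 after a start site). Each was searched on both strands for the motif of NRF1 (GCGCA, any base and GCGC), a factor known for activating nuclear genes of mitochondria, for an ETS motif (CCGGAAG), as bound by the GABP factor, and for a YY1 motif (AAGATGGCG). The NRF1 motif was in 17.6% of the members' promoters, in 8.66% of the promoters of genes tested and in 4.60% of all promoters in the table. For the ETS motif these shares were 33.8%, 15.0% and 8.86%. For the YY1 motif they were 10.8%, 2.52% and 1.40%. The SP1 motif GGGCGG was in 52.7% of the members' promoters and in 59.7% of those of genes tested, and TATAAA in 6.76% and 7.54%. Promoters of OXPHOS subunits had the NRF1 motif in 25.7% and the ETS motif in 22.9%, and those of cytosolic ribosomal proteins in 7.89% and 35.5%. These are matches of letters, and binding was not measured.

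The promoters of 4 of the 12 members called in a comparison of 2 ages are shown, with matches to the NRF1, ETS and YY1 motifs in capitals. They lie at chr11:120484387-120484686 (plus strand), chr14:54426659-54426958 (plus strand), chr6:71823735-71824034 (minus strand) and chr11:97315466-97315765 (plus strand). Mrpl12 had an NRF1 match at position -81, counted from the start site. Mrpl52 had 2 ETS matches, Mrpl35 had a YY1 match just after the start site, and Mrpl45 had 3 NRF1 matches. These 4 all have a match, which not every called member has. The promoters of Mrps36 and Mrpl23, also called, had no match to any of these motifs.
Mrpl12: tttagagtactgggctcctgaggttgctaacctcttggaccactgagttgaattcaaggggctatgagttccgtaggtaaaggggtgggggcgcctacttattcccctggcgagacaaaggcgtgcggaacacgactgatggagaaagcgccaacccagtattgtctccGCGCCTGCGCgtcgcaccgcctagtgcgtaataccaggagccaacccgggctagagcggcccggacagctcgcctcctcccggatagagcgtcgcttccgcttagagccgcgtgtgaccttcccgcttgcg
Mrpl52: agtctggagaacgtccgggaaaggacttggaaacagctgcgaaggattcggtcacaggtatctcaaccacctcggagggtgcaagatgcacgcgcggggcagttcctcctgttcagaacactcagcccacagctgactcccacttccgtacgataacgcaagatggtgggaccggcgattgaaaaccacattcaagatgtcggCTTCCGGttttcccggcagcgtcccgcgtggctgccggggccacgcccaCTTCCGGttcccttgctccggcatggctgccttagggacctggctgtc
Mrpl35: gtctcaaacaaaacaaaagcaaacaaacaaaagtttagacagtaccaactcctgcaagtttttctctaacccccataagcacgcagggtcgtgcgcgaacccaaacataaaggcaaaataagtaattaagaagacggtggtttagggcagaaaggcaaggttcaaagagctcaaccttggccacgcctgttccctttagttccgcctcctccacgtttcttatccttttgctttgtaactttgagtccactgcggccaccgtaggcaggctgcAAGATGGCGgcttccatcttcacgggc
Mrpl45: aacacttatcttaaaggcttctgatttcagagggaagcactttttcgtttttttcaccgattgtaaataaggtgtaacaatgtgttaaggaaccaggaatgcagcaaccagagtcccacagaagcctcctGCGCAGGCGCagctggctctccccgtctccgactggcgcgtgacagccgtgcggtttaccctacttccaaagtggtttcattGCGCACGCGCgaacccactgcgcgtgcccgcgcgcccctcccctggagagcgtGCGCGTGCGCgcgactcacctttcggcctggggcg

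Reads counted on genes ranged from 6399499 (P7 replicate 2) to 14733985 per library, and the members took between 0.150% and 0.182% of them. The 12 pairs of libraries of one age all differed by more than sampling noise. The labels do not say that the libraries come from separate animals, so p-values measure the spread between these libraries only. Genes with a read numbered 14249 to 14749 in the P28 libraries and at least 16197 in every other one. The summed level of 12 astrocyte markers lay between 63201 and 79806 at P1, 30547 and 56089 at P7, 166361 and 208094 at P14, and 374577 and 438145 at P28. That of 11 oligodendrocyte markers was 8208 to 12633, 23955 to 35744, 311094 to 370926 and 102557 to 142329. Between P1 and P28, 10 of the astrocyte markers were called higher and 1 lower, and 6 and 4 of the oligodendrocyte markers. The astrocyte marker that was lower was Aldh1l1 itself, the gene whose promoter marks the sorted cells, with 5008 ± 1320 normalized counts at P1 and 2921 ± 446 at P28 (SD, n = 3, log2 change -0.76, limma adjusted p = 0.0286). No marker of these 2 lists was without reads at any age. The sum of 6 choroid plexus markers was 310 to 763 in the P1 libraries, with Prr32 at 0, and 47945 to 127624 in those of P7. In later libraries it spread widely, from 880 (replicate 3) to 109077 at P14 and from 17740 (again replicate 3) to 182443 at P28. That of 8 neuron markers was 6766 to 11661 at P1, with Gabra6 at 0, then 14374 to 16900, 27738 to 50051 and 20053 to 24643. The sum of 15 cell cycle genes was 11487 to 19322, 24620 to 30844, 1597 to 2436 and 984 to 1188, with Cdk1 at 0 at P28. The part of these shifts in the changes of the members was not tested. In such bulk samples, fewer cells of a type and less RNA per cell cannot be told apart.

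No member passed the test in the first 2 steps, in which many other genes did. Between P1 and P7, 0 members were higher and 0 lower in limma's test (Benjamini-Hochberg adjusted p under 0.05 over 15464 genes), where 3.47% of all genes tested were higher and 4.24% lower. Between P7 and P14 the counts were again 0 and 0, against 10.8% and 10.0% of all genes. On the recovered reads, edgeR and DESeq2 also called 0 members in either step. edgeR called 3.16% of all genes higher and 3.89% lower in the first step and 11.0% and 8.67% in the second, and DESeq2 called 11.2% in either direction in the first and 23.7% in the second. At an unadjusted p under 0.05, 2 members passed in the first step (Mrpl35, with a log2 fold change of 0.61, and Mrpl18, with 0.55) and 0 in the second, where 2986 and 4942 of the 15464 genes did.

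Fold changes here are on the log2(normalized count + 1) scale, which understates those of low genes. The members' median was 0.04 from P1 to P7, beside 0.04 for all genes, and 0.05 from P7 to P14, beside -0.09. Single members ranged from -0.59 (Mrps18a) to 0.81 (Mrpl15) in the first step and from -0.94 (Mrpl42) to 0.74 (Mrps26) in the second. The libraries of the 2 ages did not overlap for 13 members that were higher and 5 that were lower at P7 than at P1 (20.1% and 18.2% of all genes). From P7 to P14 these numbers were 10 and 5 (21.3% and 24.8%).

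A missing call was not a measured standstill for every member. The 95% interval of the change lay within 1 on the log2 scale, that is, within 2-fold, for 24 members from P1 to P7 and for 19 from P7 to P14 (26.0% and 19.1% of all genes). From P14 to P28 it did for 13, and from P1 to P28 for 12 (23.3% and 17.8%). The median half-width of the intervals was 0.91 for the members and 0.98 for all genes. Members had a median of 197 reads per library at P1, 174 at P7, 146 in the P14 group and 137 at P28, against 264, 213, 172 and 131 for all genes tested. With library totals in place of size factors the median from P7 to P14 was -0.21, and that of all genes was -0.34.

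Genes of the cytosolic ribosome, which makes the members' own proteins, and of OXPHOS, which holds the products of the mitochondrial ribosome, had other courses. From P7 to P14 the 79 cytosolic ribosomal protein genes tested had a median of -0.95, with 64 lower and 0 higher. The 76 OXPHOS subunit genes had a median of 0.51, with 14 higher and 0 lower. From P1 to P28 the medians were -0.71 for the cytosolic ribosome (53 lower), 0.88 for OXPHOS (49 higher) and 0.23 for the members. With library totals the members' median from P1 to P28 was -0.21 and that of all genes -0.66, so the sign turned while the distance to other genes, 0.46 with size factors, was 0.45. That distance was 0.20 among genes with 10 or more reads in every library, where all genes had a median of 0.04 and 75 members one of 0.24. With the same restriction it was 0.02 instead of 0.14 from P7 to P14 and 0.03 instead of 0.16 from P14 to P28. No test of the difference between lists was made.

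**Figure D1:**
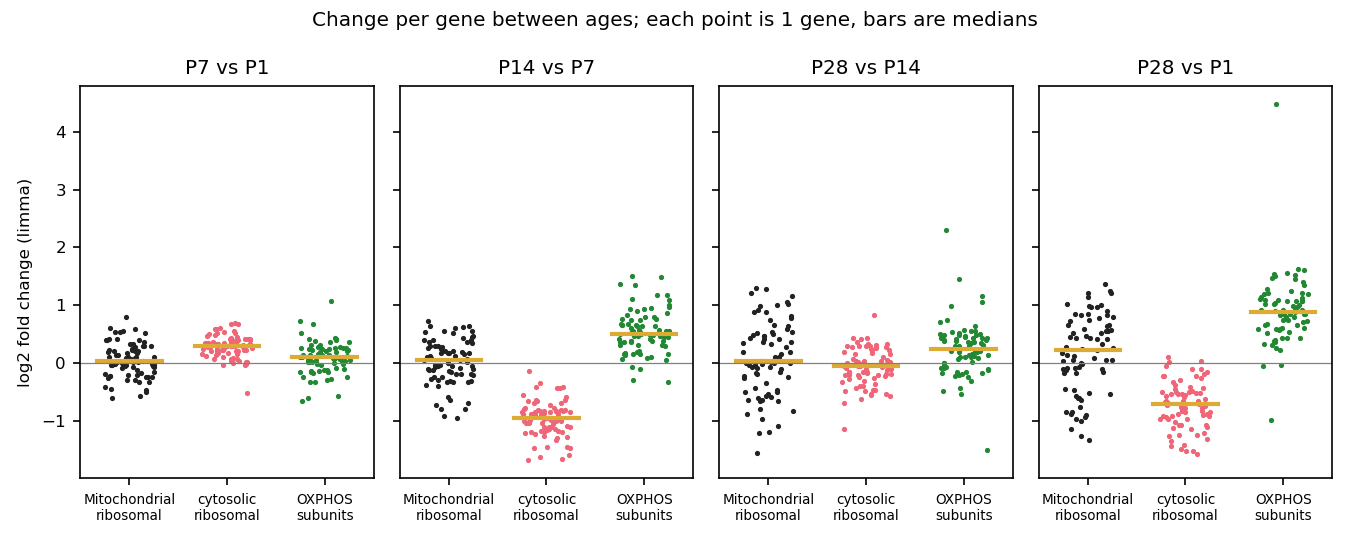
log2 fold change of each gene (y axis, limma, log2(normalized count + 1) scale) in 4 comparisons of ages, for 77 mitochondrial ribosomal, 79 cytosolic ribosomal and 76 OXPHOS genes. Each point is a gene and the bars are medians, which stay between 0.04 and 0.23 for the mitochondrial ribosomal genes (0.10, -0.21, -0.19 and -0.21 with library totals) while those of the cytosolic ribosome reach -0.95 and those of OXPHOS 0.88.

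A ratio of sums within a library does not depend on how libraries are scaled. The summed normalized counts of the cytosolic ribosomal genes at P1 were 13.1 ± 0.435 (SD, n = 3) times those of the members. The ratio was 15.3 ± 0.922 in the P7 libraries, 7.23 ± 0.583 in those of P14 and 5.76 ± 0.367 in those of P28. All 6 libraries at P14 and P28 lay between 5.35 and 7.84, below the 6 libraries at P1 and P7, which lay between 12.9 and 16.4. The OXPHOS sum over the members' sum was 3.21 ± 0.229 at P1 and 3.23 ± 0.109 at P7, and then 4.63 ± 0.319 at P14 and 4.54 ± 0.377 at P28. Its highest value in a library at P1 or P7 was 3.47 and its lowest at P14 or P28 was 4.14. The members' own sum was 14046 ± 1139 and 14354 ± 1171 normalized counts at P1 and P7, and 15742 ± 475 and 19883 ± 2660 at P14 and P28. As a share of all reads it did not rise in the same way, with 0.157% ± 0.00981 at P1 and 0.164% ± 0.0157 at P28, and the libraries of these ages overlapped.

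**Figure D2:**
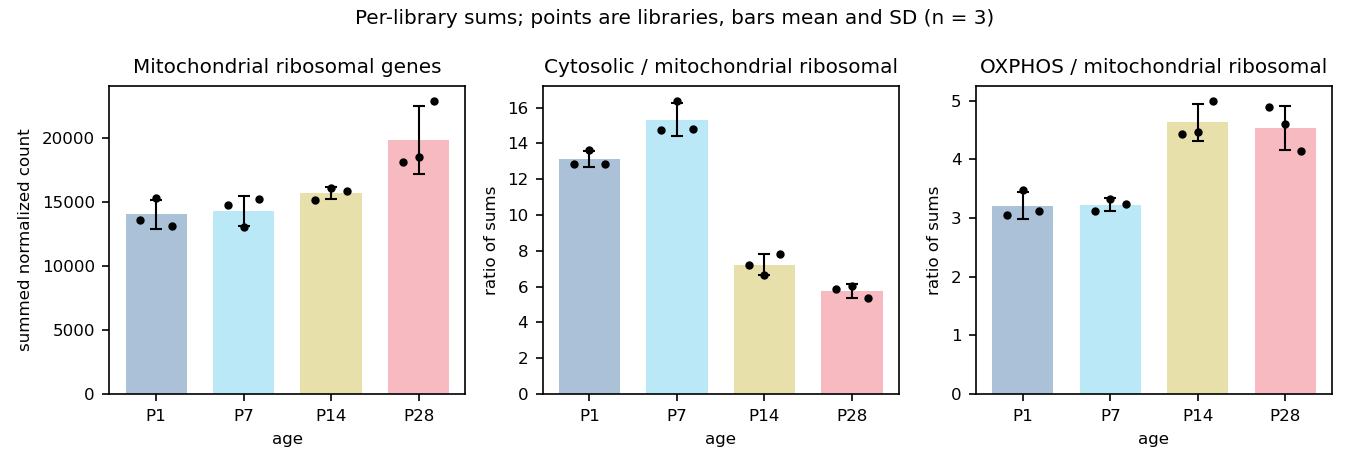
Summed normalized count of the 77 mitochondrial ribosomal genes (left), and ratio of the cytosolic ribosomal (middle) and OXPHOS (right) sums to it, by age. Points are libraries and bars are the mean with the SD of 3 libraries, and the cytosolic ratio lies between 12.9 and 16.4 at P1 and P7 and between 5.35 and 7.84 at P14 and P28.

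Between P14 and P28 a pair of large-subunit members rose, Mrpl52 and Mrpl12, and 0 fell, against 5.68% of all genes higher and 8.76% lower. edgeR called 2 higher and 0 lower (5.55% and 7.24% of all genes), and DESeq2 7 higher and 4 lower (8.61% and 11.3%). The members' median was 0.04 (all genes -0.12), and -0.19 (all genes -0.35) with library totals, by which 1 member was called higher and 2 lower (2.95% and 12.5% of all genes). The libraries did not overlap for 11 members that were higher and 5 that were lower (11.7% and 14.5% of all genes). At the study's own kind of threshold, a log2 fold change beyond 0.75 with an unadjusted p under 0.05, 8 members were higher and 3 lower, where 7.83% and 16.3% of all genes were.

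Mrpl52, a protein of the large subunit with no bacterial homolog, had 866, 1246 and 744 normalized counts at P1, 769, 580 and 912 at P7, 736, 746 and 644 at P14, and 1157, 1384 and 2007 at P28. Its P28 libraries were all above those of P7 and P14 but overlapped those of P1. The rise from P14 to P28 was 1.06 on the log2 scale (SE 0.25, limma adjusted p = 0.0132). Without P14 replicate 3 its adjusted p was 0.0526, and then 0 members were called in this step. From P1 to P28 it changed by 0.67 (adjusted p = 0.0522).

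Mrpl12 encodes the homolog of bacterial L12, the stalk protein that recruits translation factors, and the protein is also known to bind the mitochondrial RNA polymerase. It had 306, 287 and 198 normalized counts at P1, 318, 274 and 335 at P7, 383, 329 and 361 at P14, and 668, 701 and 657 at P28. The P28 libraries stood close together and far above the other 9. The change from P14 was 0.92 (SE 0.24, limma adjusted p = 0.0197) and that from P1 was 1.38 (SE 0.24, adjusted p = 4.94e-04). The change from P1 kept an adjusted p under 0.05 in all 22 alternatives, while that from P14 lost it in 4. These were library totals (0.68, limma adjusted p = 0.0625), only the 2 ages (adjusted p = 0.0548), and the fits without P14 replicate 2 (adjusted p = 0.0576) and without P14 replicate 3 (adjusted p = 0.0519).

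From P1 to P28, 10 members rose and 1 fell, against 14.6% of all genes higher and 20.0% lower. These P28 libraries are the same as in the step from P14, so the calls for Mrpl12 share them. Of the risers, 8 belong to the large subunit and 1 (Mrps33) to the small one, and the remaining riser is Mrps36. With library totals only 2 members were higher and 8 lower, where 8.85% of all genes were higher and 33.2% lower, whereas edgeR called 11 higher and 0 lower (15.9% and 15.9% of all genes) and DESeq2 15 higher and 1 lower (16.4% and 18.3%). The number of risers was 5 without P1 replicate 1 and 6 without P1 replicate 3. Without P28 replicate 3, the library of that age with the lowest choroid plexus sum, 8 rose and 4 fell. By limma's F test over the 4 ages, 8 members changed (Mrpl12, Mrpl52, Mrpl18, Mrpl35, Mrpl48, Mrpl4, Mrps33 and Mrps36), against 43.8% of all genes.

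Mrps33, a mitochondria-specific protein of the small subunit, had 285, 596 and 436 normalized counts at P1, 494, 327 and 567 at P7, 689, 645 and 749 at P14, and 969, 570 and 1816 at P28. P28 replicate 2 lay below P1 replicate 2, so these ages overlapped. The rise from P1 to P28 was 1.25 (SE 0.37, limma adjusted p = 0.0178), and it was 0.82 without P28 replicate 3 (adjusted p = 0.0701) and 0.97 without P1 replicate 1 (adjusted p = 0.0892).

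Mrpl48, also specific to mitochondria, had 182, 144 and 116 normalized counts at P1, 173, 126 and 136 at P7, 212, 195 and 193 at P14, and 332, 445 and 258 at P28. Its P28 libraries were above all others. The change from P1 was 1.21 (SE 0.33, limma adjusted p = 0.0104).

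Mrps36, the dehydrogenase adaptor, had 165, 351 and 232 normalized counts at P1, 244, 226 and 306 at P7, 423, 398 and 321 at P14, and 563, 454 and 655 at P28. No P28 library overlapped another age. It rose by 1.21 from P1 (SE 0.30, limma adjusted p = 0.00614), a call kept in all 22 alternatives. Without it, 9 of 76 ribosomal members were higher and 1 was lower from P1 to P28.

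For a pair of members with bacterial homologs, the mean at P7 lay between those of P1 and P28, though the change from P1 to P7 did not pass. Mrpl18, the homolog of the protein that holds the 5S ribosomal RNA in bacteria, had 330, 237 and 225 normalized counts at P1, 418, 359 and 373 at P7, 358, 435 and 279 at P14, and 491, 485 and 633 at P28. Mrpl35 had 185, 224 and 242 at P1, 330, 309 and 352 at P7, 282, 255 and 363 at P14, and 329, 481 and 517 at P28. For both, the P7 libraries were all above those of P1 and the P14 libraries spread around those of P7. The changes from P1 to P28 were 1.03 for Mrpl18 (limma adjusted p = 0.00658) and 1.01 for Mrpl35 (adjusted p = 0.00963), while those from P1 to P7 had adjusted p = 0.251 and 0.215.

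With library totals the changes from P1 to P28 of Mrps33 (0.82), Mrpl48 (0.78), Mrpl18 (0.60) and Mrpl35 (0.57) stayed above 0 but did not pass, with limma adjusted p from 0.0696 to 0.0951. With only the libraries of P1 and P28 in the fit, Mrps33, Mrpl48 and Mrpl35 did not pass (adjusted p from 0.0518 to 0.0715).

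Smaller changes from P1 to P28 passed the test for Mrpl32 (1.00 on the log2 scale, limma adjusted p = 0.0479), Mrpl23 (0.98, adjusted p = 0.0408), Mrpl4 (0.83, adjusted p = 0.0200) and Mrpl30 (0.60, adjusted p = 0.0492). Mrpl23 and Mrpl4 line or adjoin the exit tunnel for the new peptide in bacteria. Mrpl30 was the member with the most normalized counts after Mrpl52, per kb. For all 4 the P28 libraries were above the P1 libraries. Of the 22 alternatives, the call held in 17 for Mrpl4, in 12 for Mrpl23, in 11 for Mrpl32 and in 7 for Mrpl30. With library totals none of the 4 passed, with changes of 0.39, 0.54, 0.56 and 0.16 in the same order (limma adjusted p from 0.199 to 0.552).

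Mrpl45 was the member that fell in limma's fit of all 12 libraries with size factors. It is known as the protein that ties the large subunit to the inner membrane near the tunnel exit. It had 137, 127 and 88.6 normalized counts at P1, 91.6, 119 and 77.5 at P7, 106, 132 and 95.6 at P14, and 32.2, 64.9 and 52.7 at P28. All P28 libraries lay below the other 9, and the change from P1 was -1.25 (SE 0.46, limma adjusted p = 0.0460). This call held in 8 of 22 alternatives, and its adjusted p was 0.148 without P1 replicate 1, 0.118 without P1 replicate 2 and 0.0921 without P28 replicate 1. Mrps18c had a fitted change of -1.33 that did not pass (adjusted p = 0.129), with 15.4, 36.4 and 38.6 normalized counts at P1 and 11.7, 10.6 and 9.47 at P28. Those P28 values are 8, 9 and 7 reads. With library totals Mrps18c was called lower from P1 to P28, as were Mrpl45, Mrpl1, Mrpl9, Mrpl20, Mrpl22, Mrpl47 and Mrpl50. Mrps18c was singled out after its values were seen.

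**Figure D3:**
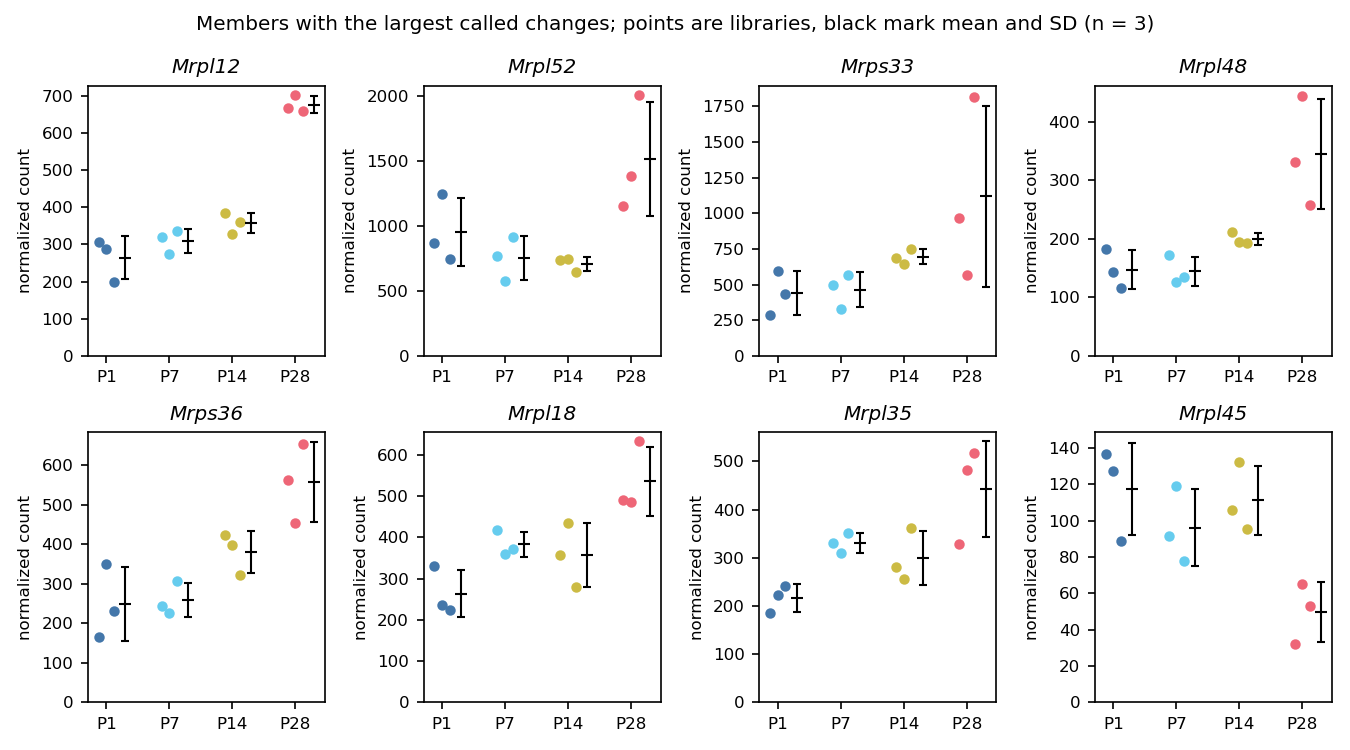
Normalized counts (y axis, from 0) of 8 members by age, with a point per library and a black mark for the mean and SD of 3 libraries. Mrpl12, Mrpl48 and Mrps36 have all P28 libraries above all others, Mrps33 spreads from 570 to 1816 at P28, and Mrpl45 lies at 32.2 to 64.9 there.

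Over all members, the age with the highest mean was P28 for 43 of the 77, P14 for 15, P1 for 10 and P7 for 9. It was lowest at P1 for 25, at P7 for 21, at P28 for 18 and at P14 for 13. These ages are by size factors, and with library totals the members' median from P1 to P28 was below 0. They rest on arithmetic means, and the shares over all genes were not computed. At P28, where libraries differed most, 1 high library can set the peak, as for Mrpl42 with a 30.3-fold spread. From P1 to P28 the fitted change was above 0 for 47 members and below 0 for 30 (6492 and 8970 of all genes tested), and the libraries did not overlap for 17 that were higher and 7 that were lower (17.9% and 24.0% of all genes). The members' quartiles in this comparison were -0.17 and 0.67, against -1.24 and 0.54 for all genes tested. The median was 0.24 for the large subunit and 0.14 for the small one. It was 0.11 for proteins with a bacterial homolog and 0.25 for those specific to mitochondria, with 7 of 46 higher among the former and 2 of 30 among the latter.

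**Figure D4:**
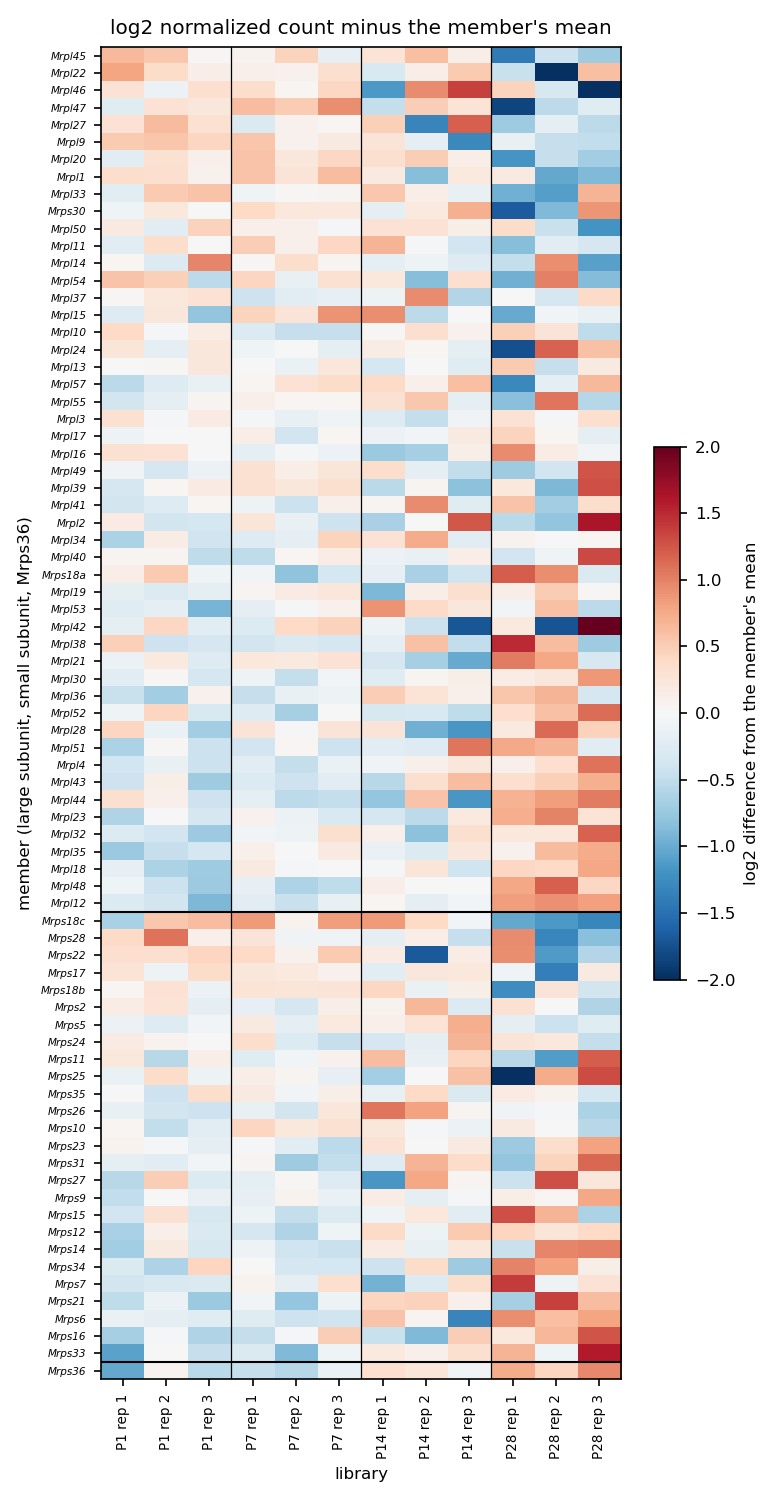
Each row is a member (large subunit, then small subunit, then Mrps36, each ordered by the change from P1 to P28) and each column a library, and color is the log2 normalized count minus the member's mean over the 12 libraries, capped at 2 either way. Colors are pale at P7 and strong at P28, where the 3 libraries often differ in sign, as for Mrpl42.

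The libraries of one age differed least at P7 and most at P28. The median SD of the members on the log2 scale was 0.287 and 0.189 at P1 and P7 and 0.372 and 0.542 at P14 and P28, beside 0.341, 0.250, 0.419 and 0.665 for all genes tested. The highest library was at least 2-fold the lowest for 9 and 0 members at P1 and P7 and for 27 and 40 at P14 and P28. At P28 this was 51.9% of the members, against 60.0% of all genes, 30.3% of OXPHOS genes and 13.9% of the more deeply read cytosolic ribosomal genes. Mrpl42, singled out after its values were seen, was the widest, with 96.5, 24.8 and 751 normalized counts at P28 after 78.4, 62.4 and 25.0 at P14. Mrpl46 had 62.8, 36.6 and 6.76 at P28. P7 replicate 2, the shallowest library, had the lowest value of its age for 47 members.

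**Figure D5:**
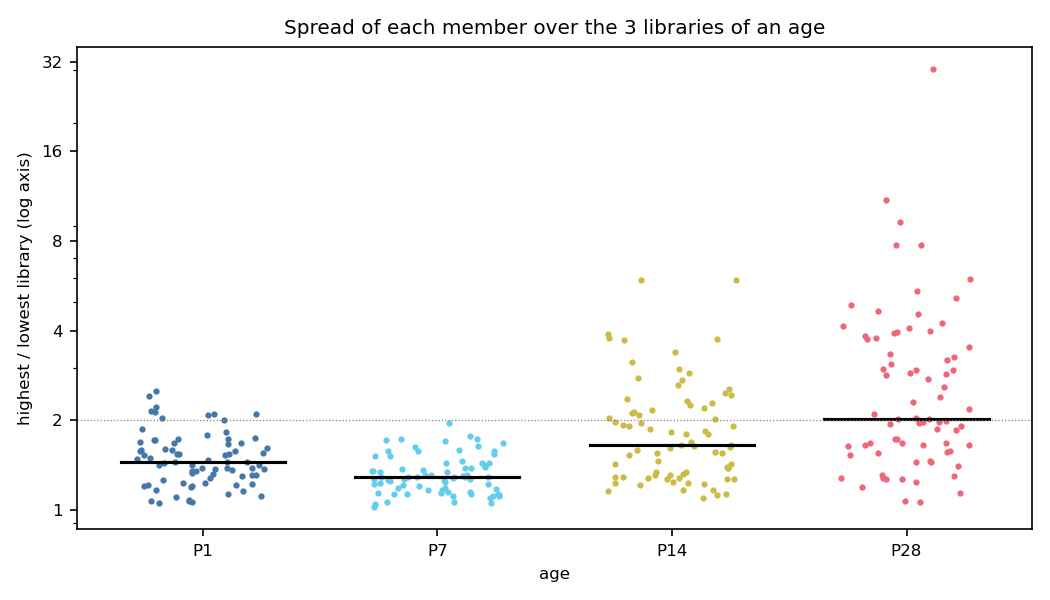
Ratio of the highest to the lowest of the 3 libraries of an age (log axis) for each of the 77 members, with black bars for the median and a dotted line at 2. The median rises from 1.29 at P7 to 2.02 at P28, and the top point at P28 is Mrpl42 at 30.3.

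Many members lie head to head with another gene. A protein-coding gene on the opposite strand starts within 1000 bases upstream of 18 of the 77 members (23.4%), against 9.29% of genes tested, 10.3% of cytosolic ribosomal genes and 23.7% of OXPHOS genes. The median distance was 82 bases. Starts were the outermost annotated ends of genes, so head-to-head genes whose ends overlap were not counted in any list. Such a pair is Mrpl46 and Mrps11, both members, whose RefSeq promoters overlap on opposite strands (chr7:78783040-78783339 and chr7:78782881-78783180). From P1 to P28, 2 of the 18 members were called (Mrpl30 and Mrpl32, with the partners Mitd1 and Psma2). Of the 18 partners, 1 was called higher and 5 lower, where 14.6% of all genes were higher and 20.0% lower. In 0 pairs were both called, but with 2 called members this cannot show whether neighbours change together. Mrps12 starts 172 bases from Sars2, the mitochondrial seryl-tRNA synthetase. Sars2 had 99.6, 38.1 and 150 normalized counts at P14 and 14.6, 2.36 and 9.47 at P28 (-3.36, limma adjusted p = 0.00747), and Mrps12 had 155, 110 and 171 and then 159, 140 and 157 (0.09, adjusted p = 0.905, and -0.14 with library totals). Mrpl51 starts 100 bases from Ncapd2, a condensin subunit, which had 187, 114 and 9.47 normalized counts at P28 and fell by 3.51 on the log2 scale from P1 (limma adjusted p = 0.00214), while Mrpl51 changed by 0.75 (adjusted p = 0.160). Several pairs had fitted changes of the same sign from P1 to P28. Both were below 0 for Mrpl50 and Zfp189, Mrpl37 and Cyb5rl, Mrpl10 and Lrrc46, and Mrps18b and Ppp1r10. Both were above 0 for Mrpl41 and Pnpla7, Mrpl32 and Psma2, Mrps27 and Ptcd2, and Mrps34 and Eme2. In the remaining pairs the signs differed. The changes were -0.53 for Mrps18b (limma adjusted p = 0.359) and -1.05 for its partner Ppp1r10 (adjusted p = 0.00353).

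Exons of RefSeq-matched transcripts were shared with another listed gene for 12 members, and overlaps through other annotated transcripts were not counted. Whether the authors' counting used strand is not given in the sources used here, so reads in these stretches cannot be assigned with certainty. Mrps6 shares 159 bases with Slc5a3 on the same strand, where strand would not separate the reads, and the other overlaps are on opposite strands. The overlap of Mrpl18 with Tcp1 was 17 bases, and Tcp1 fell by 1.02 on the log2 scale from P1 to P28 (limma adjusted p = 0.00298). Mrpl43 shares 385 bases with Peo1, the mitochondrial DNA helicase, which fell by 3.40 (adjusted p = 0.00452) while Mrpl43 changed by 0.84 (adjusted p = 0.0531). Peo1 had 97.8, 43.6 and 69.7 normalized counts at P1 and 20.5, 2.36 and 2.70 at P28, so its P28 values rest on few reads. Pseudogene copies with at least 95% identity over at least 300 bases were found for 17 members. They include Mrps33, Mrpl48, Mrps36, Mrpl32 and Mrpl23 of the 12 called members, whose counts are uncertain to that extent, and none was found for Mrpl12, Mrpl52, Mrpl18, Mrpl35 or Mrpl45.

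Other proteins of the mitochondrial ribosome carry names outside the Mrp series, and 6 were tested. Aurkaip1, a small-subunit protein, had 311, 314 and 312 normalized counts at P7 and 519, 595 and 438 at P14, a rise of 0.71 (limma adjusted p = 0.0313). It was also higher at P28 than at P1 (0.65, adjusted p = 0.0331). None of the other 5 was called in any of the 4 comparisons (Dap3, Gadd45gip1, Ptcd3, Chchd1 and Ict1, the present Mrpl58).

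Of 27 genes for the assembly of the mitochondrial ribosome, 3 rose and 2 fell between P1 and P28. These are 11.1% and 7.41%, against 14.6% and 20.0% of all genes tested. Rpusd3, a pseudouridine synthase of mitochondrial RNA, rose by 2.52 (limma adjusted p = 0.00139), and Mpv17l2 rose by 2.12 (adjusted p = 0.00137). Ftsj2, a methyltransferase of the large ribosomal RNA, fell by 2.41 on the log2 scale (adjusted p = 0.0217), and the GTPase Gtpbp10 fell by 1.29 (adjusted p = 0.0235). Ftsj2 had 28.3, 15.7 and 15.1 normalized counts at P1 and 2.92, 4.72 and 1.35 at P28. In these P28 libraries 3 reads make 4.38, 3.54 and 4.06, so few reads lie behind its P28 values. From P7 to P14, 1 of the 27 was higher (Rpusd3) and 2 were lower (Gtpbp10 and Noa1), where 10.8% and 10.0% of all genes were. From P14 to P28, 1 was lower (Ftsj2), against 8.76% of all genes.

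Among 20 mitochondrial tRNA synthetases, 1 rose (Lars2) and 2 fell (Ears2, Sars2) between P1 and P28. These are 5% and 10%, against 14.6% and 20.0% of all genes tested. Ears2 had 89.0, 105 and 178 normalized counts at P14 and 11.7, 1.18 and 9.47 at P28, a change of -4.17 (limma adjusted p = 0.00182). Lars2 rose by 0.52 from P7 to P14 (limma adjusted p = 0.0322). Its level was unusually high, with 27183, 26834 and 26375 normalized counts at P7 and 38372, 42389 and 35198 at P14. The summed counts of the members were lower, at 13034 to 15269 in the P7 libraries and 15206 to 16108 in those of P14. Whether all reads counted on Lars2 come from its messenger RNA was not tested. Of 15 translation factors tested, Gfm2 alone was called from P14 to P28 (-1.19, limma adjusted p = 0.0420), where 8.76% of all genes were lower. Mrrf alone was called from P1 to P28 (-1.02, limma adjusted p = 0.0267), where 20.0% of all genes were lower. Both act in ribosome recycling.

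Of 9 genes for the transcription and upkeep of mitochondrial DNA, 2 fell between P1 and P28, Peo1 and Polg2 (-1.86, limma adjusted p = 0.0304). This is 22.2%, against 20.0% of all genes tested. Among 11 regulators of mitochondrial biogenesis, the coactivator Ppargc1a had 522, 349 and 412 normalized counts at P7, 905, 693 and 727 at P14, and 1748, 1152 and 1544 at P28. It rose in both steps, by 0.87 (adjusted p = 0.0153) and 0.92 (adjusted p = 0.0174). Ppargc1b rose by 2.35 from P7 to P14 (adjusted p = 0.00547), and Myc (-1.79, adjusted p = 0.0175) and Pprc1 (-1.38, adjusted p = 0.0103) fell. Pprc1 was higher again at P28 than at P14 (1.28, adjusted p = 0.0242). From P7 to P14, 2 of the 11 were higher and 2 lower (18.2% each), against 10.8% and 10.0% of all genes. From P14 to P28, 2 were higher (18.2%) and 0 lower, against 5.68% and 8.76%. From P1 to P28, 1 was higher (Ppargc1a, 9.09%) and 0 lower, against 14.6% and 20.0%. The factors whose motifs were searched, Nrf1, Gabpa, Yy1 and Sp1, were not called in any comparison. Their changes from P1 to P28 were -0.56, -0.36, 0.05 and -0.16. Sp1 changed by -0.54 from P7 to P14 (limma adjusted p = 0.0509) and by 0.51 from P14 to P28 (limma adjusted p = 0.0796).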

How the data were processed

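Bulk RNA was sequenced from 12 libraries, 3 at each of 4 ages. The authors aligned reads with STAR (version 2.5.0a per the labels) to mm10, counted them per gene and normalized them with DESeq2 (version 1.30.1 per the submitters' processing notes, where the study's methods name another version). The deposited values are a signal, counts divided by a size factor per library. Dividing by each library's step gave whole reads for 100% of values (tolerance 0.01 read).

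Genes reaching a value of 10 in 3 or more libraries (15464) were tested with limma (3.58.1, under R 4.3.3) after log2(value + 1), as one fit of the 12 libraries with age means and a variance trend. Calls are at a Benjamini-Hochberg adjusted p under 0.05 over all these genes. edgeR (4.0.16) and DESeq2 (1.42.0) ran on recovered reads. Fits were tested on simulated data. Other alternatives were TMM scaling, library totals, other pseudocounts and filters, only the ages compared, a replicate block, the study's threshold and each library left out. Gene positions are from GENCODE M21 (GRCm38, the build of mm10), promoters from RefSeq.

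Named genes are, per comparison, the 6 called members with the largest rise and fall, members called against the median's sign, the 5 most and 5 least abundant per kb, and in other lists the 2 largest called changes each way. Others are given as called members, neighbours or said to be chosen later. The members and lists were chosen with earlier results of these data known. Each library's counting precision is limited by its reads, and intervals on few reads are wide. Copies were sought with blastn (2.17.0). Annotated genes of the pattern without a row under that name numbered 6 and were not analysed here.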

Additional observations from a re-analysis of the deposited data

How the results depend on the processing

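None of the 13 called results of the 12 called members changed sign in an alternative, and 2 (Mrpl12 and Mrps36, from P1 to P28) stayed called in all 22. The sign of the uncalled change of Mrps12 from P14 to P28 turned with library totals (-0.14) and without P14 replicate 2. Calls of members from P1 to P7 and from P7 to P14 stayed at 0 in every alternative. The median from P7 to P14 was -0.21 with library totals. From P14 to P28, the 2 higher and 0 lower calls became 1 and 2 with library totals (median -0.19), 7 and 4 with DESeq2 (median 0.15), 1 higher with only the 2 ages, and 8 and 3 at an unadjusted p with a log2 change over 0.75, and the median was 0.14 with edgeR. From P1 to P28, the 10 higher and 1 lower became 2 and 8 with library totals (median -0.21) and 3 and 0 with only the 2 ages, 0 were lower with TMM scaling, with edgeR and with no filter, and the median was 0.38 with edgeR and 0.35 with DESeq2. The causes were not tested. With each library left out, members called higher ranged from 0 to 4 and lower from 0 to 1 from P14 to P28, and from 5 to 12 and 0 to 4 from P1 to P28. The medians lay between 0.011 and 0.13 at P7 against P1, 0.0019 and 0.10 at P14 against P7, 0.031 and 0.19 at P28 against P14, and 0.15 and 0.29 at P28 against P1.

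Replicate numbers did not pair the libraries, with correlations of same-numbered deviations from -0.03 to 0.14. With the replicate block 8 members were higher and 0 lower from P1 to P28. Depth and spread limit the rest: the 95% interval of a change lay within 2-fold either way for 12 to 24 of the 77 members, depending on the comparison.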
